A study of Rattus norvegicus with 16 samples.

Results

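Genes of adipocytes (fat cells) were followed in left ventricular RNA of SH and WKY rats that had inhaled diesel exhaust (DE) or air. The genes were Car3, Scd, Adipoq, Cfd, Fabp4, Lipe, Lep and Retn, and every probe set that the platform annotation assigns to one of them by symbol was taken. This gave 7 probe sets of 6 genes, Car3 having 2, among 15866 probe sets tested and 10411 genes named, and Adipoq and Retn, which had none, were skipped. The 16 male rats, 12 to 14 weeks of age before the 4 weeks of exposure, formed 4 groups of 4 with 1 Affymetrix Rat 230A array each. SH-DE and SH-air rats were of the spontaneously hypertensive strain, and WKY-DE and WKY-air rats of the normotensive Wistar Kyoto strain from which it was bred. DE rats breathed 2.0 mg/m3 whole body on 5 days a week for 4 weeks, for 6 h a day per the labels and for a shorter time in the methods, and air rats breathed air in the same way. The tissue was left ventricle with septum, taken a day after the last exposure. A signal is the scaled brightness of a probe set on a linear scale, without unit, and it can be compared between arrays but not between probe sets.

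White fat cells store triglyceride in a droplet and release fatty acids from it when hormones activate lipases. They also secrete proteins that act on other organs, among them leptin, adiponectin and complement factor D. The heart carries fat on its outer surface, but cardiac muscle and capillary endothelium also use many proteins of lipid handling. In RNA of a whole tissue, fewer cells of a type and less RNA per cell cannot be told apart.

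The RefSeq promoter sequences (GRCr8, 250 bases before to 50 after the start site) of Scd, Cfd and Lep are shown because Scd was called between the strains and Cfd and Lep are the secreted members measured. They were matched by symbol, 3 of the 6 measured members having an entry; Car3, Fabp4 and Lipe are named only. The sequences run 5′ to 3′ on the gene's strand, and capitals mark matches to searched motifs.
Scd promoter (chr1:253231682-253231981, strand -): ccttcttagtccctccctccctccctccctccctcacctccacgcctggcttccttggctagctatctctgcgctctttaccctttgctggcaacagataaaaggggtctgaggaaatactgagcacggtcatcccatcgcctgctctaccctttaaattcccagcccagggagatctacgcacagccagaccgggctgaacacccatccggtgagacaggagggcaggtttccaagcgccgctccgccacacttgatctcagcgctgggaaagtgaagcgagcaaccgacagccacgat
Cfd promoter (chr7:10465447-10465746, strand -): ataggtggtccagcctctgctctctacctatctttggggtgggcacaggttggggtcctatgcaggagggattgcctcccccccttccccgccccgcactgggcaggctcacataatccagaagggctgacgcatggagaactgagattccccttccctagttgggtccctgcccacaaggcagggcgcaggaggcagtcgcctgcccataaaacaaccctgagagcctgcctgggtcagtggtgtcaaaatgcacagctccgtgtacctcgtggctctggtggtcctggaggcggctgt
Lep promoter (chr4:58626288-58626587, strand +): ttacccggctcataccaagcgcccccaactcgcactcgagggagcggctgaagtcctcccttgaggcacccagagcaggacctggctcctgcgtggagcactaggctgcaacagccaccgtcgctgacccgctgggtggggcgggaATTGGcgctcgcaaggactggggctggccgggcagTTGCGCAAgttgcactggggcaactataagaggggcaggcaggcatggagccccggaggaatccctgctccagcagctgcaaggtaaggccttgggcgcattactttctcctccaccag
On both strands TTGCGCAA (the core bound by C/EBP factors), CCAAT and TATAAA were searched, and no match overlapped another in these promoters. Lep held TTGCGCAA 69 bases before the start site and CCAAT, read on the other strand, 104 bases before it. The first is found in 0.17% and the second in 37.5% of the 33469 rat promoters of the same length, and TATAAA, which none of the 3 held, in 14.2%. Scd and Cfd held none of the motifs in this window. A match is a description of the letters and not of a site in use.

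The arrays were scaled to the same average of signals, but every WKY-DE array had a higher median signal than every array of the other groups. Arrays of the same group correlated at 0.949 to 0.968 (Pearson r over log2 signals of all probe sets), and the median signal per array was 184.5 to 193 in SH-DE, 173.0 to 197 in SH-air, 209 to 216 in WKY-DE and 177 to 192 in WKY-air rats. Atrial myocyte genes, which a ventricular sample should nearly lack, varied widely. Myl7, the atrial regulatory myosin light chain, had signals of 94.2, 1443, 7876 and 187 in SH-DE, 33.5, 154, 33.4 and 75.0 in SH-air, 657, 404, 9630 and 2927 in WKY-DE and 25946, 4415, 11451 and 9718 in WKY-air rats. WKY-DE replicate 3 and SH-DE replicate 3 were the arrays highest in these genes within a DE group. The DE changes of Car3 (brighter probe set) are given with and without this pair. So are the strain differences of Car3 and Scd in air and over both exposures. Other results are given without the pair only where their sign changed. The highest Myl7 signal of all, in WKY-air replicate 1, is not in the pair.

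Markers of fat cells were checked against the floor of the arrays. Signals below 16.1, the 10th percentile of all signals, were taken as the floor, and this value was added to each signal before log2. Lep, the hormone leptin, was below it on 11 of 16 arrays, and so was Cebpa, a transcription factor needed for fat cell differentiation. Plin1, which coats the lipid droplet of fat cells, ranged over 44.9 to 94.98 in SH-DE, 69.1 to 106 in SH-air, 69.2 to 83.7 in WKY-DE and 68.1 to 147 in WKY-air rats, and it passed no test. Cfd, Fabp4, Lipe and the brighter Car3 probe set were below the floor on 0 of 16 arrays, but heart muscle or capillaries also make Lipe and Fabp4. The genes are described below by name. The amount of fat in the samples was not measured.

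**Figure D1:**
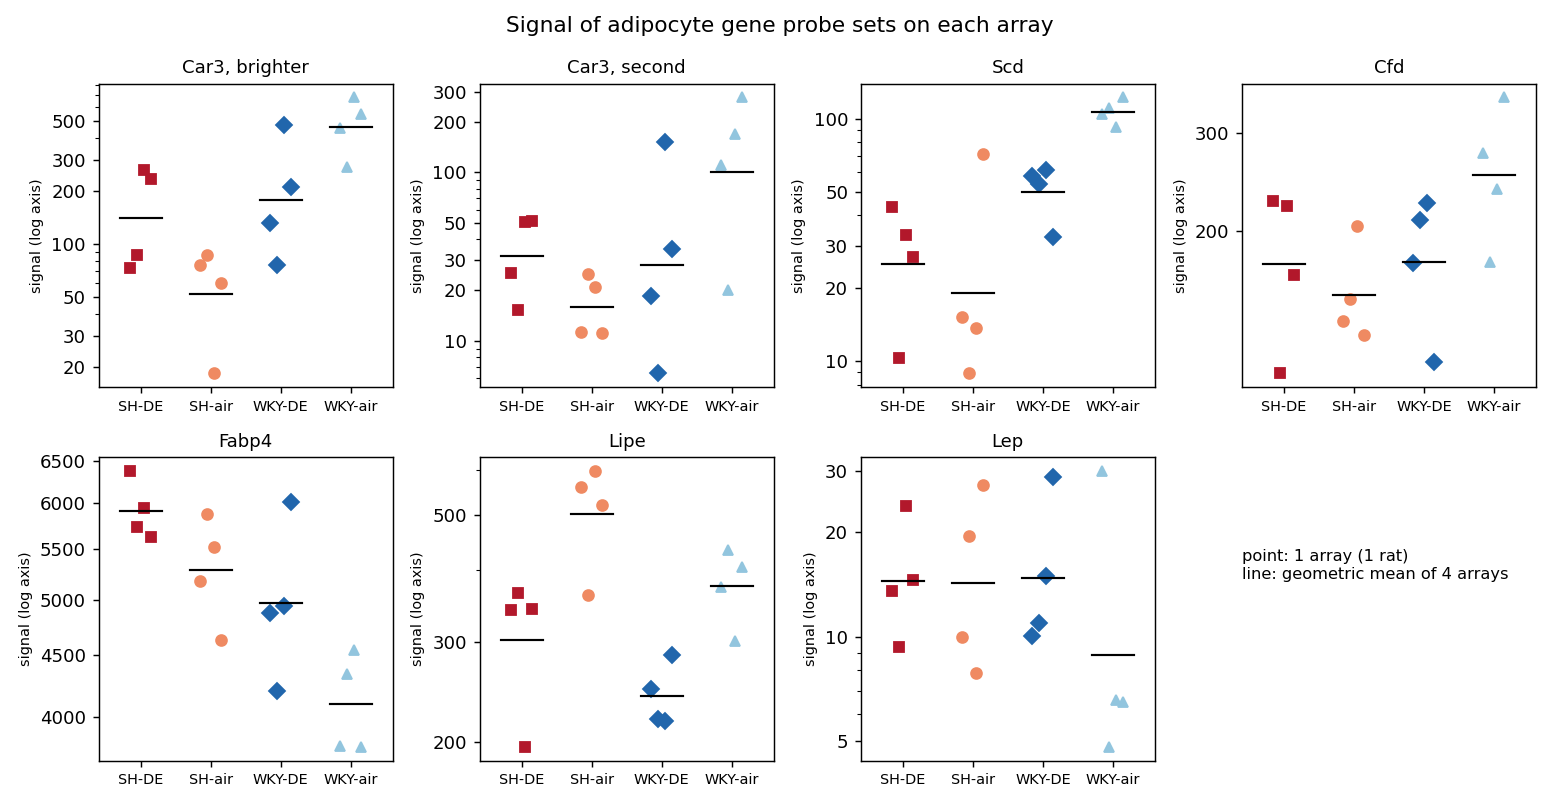
Signal of each of the 7 probe sets on the 16 arrays (log axes, no unit), by group, with 1 point for each rat and a line at the geometric mean of 4 arrays. Car3 and Scd were highest in WKY-air rats, Fabp4 was lowest in WKY-air rats, and Lep lay near the floor of 16.1 in all groups.

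Car3 and Scd were lower in SH-air than in WKY-air rats, and no other member passed the test in that comparison. A probe set was called where its limma p, adjusted over all probe sets by Benjamini-Hochberg, was under 0.05 and its raw p under 0.01. Of the 7 probe sets 2 were called, both lower, while 3.15% of all probe sets were called in either direction and 1.79% were called lower. The 7 log2 fold changes had a median of −0.67, with 3 positive and 4 negative, against a median of 0.02 over all probe sets. Because the members and lists were chosen with earlier results of these data known, these counts are descriptions.

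Car3 encodes carbonic anhydrase III, a cytosolic enzyme that is abundant in fat, liver and slow skeletal muscle. On its brighter probe set the signals were 73.1, 86.4, 264 and 234 in SH-DE, 76.0, 86.8, 18.4 and 59.6 in SH-air, 131, 75.6, 472 and 212 in WKY-DE and 452, 275, 678 and 545 in WKY-air rats. The SH-air and WKY-air arrays did not overlap, the highest SH-air array lying below the lowest WKY-air array, whereas the arrays of both DE groups spread over much of the range between. The difference between SH-air and WKY-air rats was −2.77 on the log2 scale (SE 0.52, limma adjusted p = 0.0114). In DE rats the strain difference was −0.31 (SE 0.52, limma adjusted p = 0.841), and the groups overlapped. Averaged over both exposures it was −1.54 (SE 0.37, limma adjusted p = 0.0275), where 4.07% of all probe sets were called and 2.30% were called lower.

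The second Car3 probe set followed the first from rat to rat but was dimmer. Its signals were 25.2, 15.3, 50.7 and 51.8 in SH-DE, 11.3, 24.9, 20.8 and 11.1 in SH-air, 18.5, 6.42, 152 and 35.1 in WKY-DE and 111, 20.1, 169 and 279 in WKY-air rats, with 4 of 16 arrays below the floor. Replicate 2 of WKY-air lay among the SH-air arrays, and the other 3 lay above all of them. The log2 difference between SH-air and WKY-air rats was −1.95 (SE 0.61, limma adjusted p = 0.107), which was not called; without WKY-air replicate 2 it was −2.55 and was called (limma adjusted p = 0.0283). After group means were removed the 2 probe sets correlated at r = 0.74 (p = 0.00213) and rho = 0.76 (p = 0.00306, both two-sided permutation tests, n = 16), and r was 0.80 without the 2 arrays farthest from the median.

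The fitted mean of Car3 was higher after DE than in air in SH rats and lower in WKY rats, the arrays overlapped in both strains, and neither difference passed the test. On the brighter probe set the log2 fold change was 1.17 in SH-DE against SH-air rats (SE 0.52, limma adjusted p = 0.796) and −1.29 in WKY-DE against WKY-air rats (SE 0.52, limma adjusted p = 0.179). The difference between those changes, the strain by exposure interaction, was 2.46 (SE 0.73, 95% interval 0.89 to 4.03, limma adjusted p = 0.228). Only 1 of 15866 probe sets, 0.00630%, was called for the interaction, and Car3 was not it. The second probe set gave an interaction of 1.901 (SE 0.87, limma adjusted p = 0.389). Within DE groups, the highest Car3 array was WKY-DE replicate 3 in WKY and SH-DE replicate 3 in SH rats on the brighter probe set, the arrays that were also highest in Myl7. Without this pair of arrays, an alternative added after seeing the data, the log2 fold change with DE was 0.90 in SH (limma adjusted p = 0.794) and −1.72 in WKY rats (limma adjusted p = 0.0925), and the interaction was 2.62 (limma adjusted p = 0.226). With the mean log2 signal of 3 atrial genes (Myl7, Myl4 and Sln) as a further term, also an alternative added after seeing the data, they were 0.61, −0.58 and 1.18, with limma adjusted p of 0.990, 0.622 and 0.759.

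Scd encodes stearoyl-CoA desaturase, the enzyme that makes monounsaturated fatty acids from saturated ones. Its signals were 43.4, 10.3, 33.2 and 26.8 in SH-DE, 15.2, 8.92, 13.7 and 71.2 in SH-air, 58.2, 53.9, 61.2 and 32.7 in WKY-DE and 105, 110.2, 92.6 and 122 in WKY-air rats. All 4 WKY-air arrays lay above all 12 others, and 3 of the SH-air arrays were below the floor, so a fold change on this scale understates the difference in signal. The log2 difference between SH-air and WKY-air rats was −1.70 (SE 0.33, limma adjusted p = 0.0142). In DE rats it was −0.64 (SE 0.33, 95% interval −1.36 to 0.07, limma adjusted p = 0.435), and over both exposures −1.17 (SE 0.24, limma adjusted p = 0.0108).

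Every WKY-DE array had a lower Scd signal than every WKY-air array, but the difference did not pass the test after adjustment. The log2 fold change in WKY-DE against WKY-air rats was −0.89 (SE 0.33, limma adjusted p = 0.157), and 1.88% of all probe sets were called there. In SH-DE against SH-air rats it was 0.18 (SE 0.33, limma adjusted p = 0.976), with SH-air replicate 4 alone above the SH-DE arrays. The interaction was 1.06 (SE 0.47, limma adjusted p = 0.379). Scd2, a second desaturase of the rat, belongs to the list of synthesis genes below and was not called in any comparison.

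**Figure D2:**
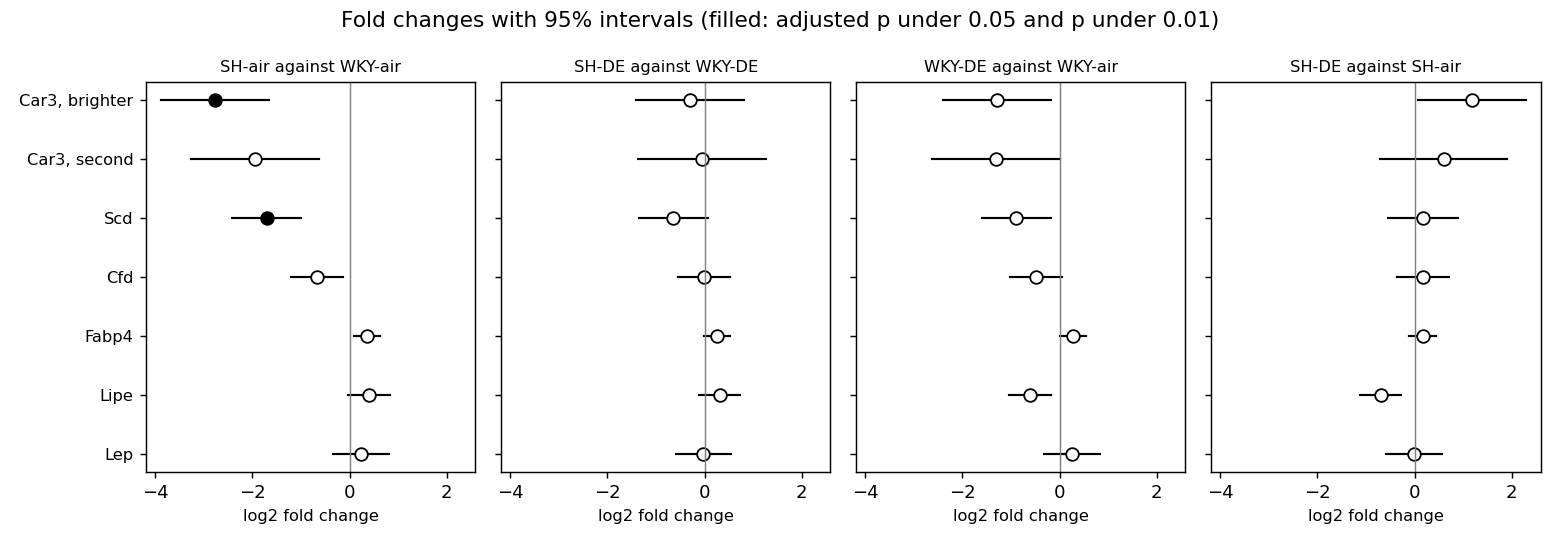
Log2 fold changes of the 7 probe sets (x axes) with 95% intervals in 4 comparisons, the group named first over the other, and filled points for calls (limma adjusted p under 0.05 and p under 0.01). Only Car3, on its brighter probe set, at −2.77 and Scd at −1.70 in SH-air against WKY-air were called, and no probe set was called in the other 3 panels.

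Lipe encodes hormone-sensitive lipase, which splits diglycerides during lipolysis in fat and is also made in cardiac muscle. Its signals were 340, 365, 196 and 342 in SH-DE, 560, 362, 597 and 521 in SH-air, 248, 220, 218 and 285 in WKY-DE and 374, 434, 301 and 405 in WKY-air rats. In WKY rats no DE array reached the lowest air array, and in SH rats the groups overlapped only at SH-air replicate 2. The log2 fold change was −0.61 in WKY-DE against WKY-air rats (SE 0.20, limma adjusted p = 0.115) and −0.70 in SH-DE against SH-air rats (SE 0.20, limma adjusted p = 0.628). No probe set (0%) was called by limma in SH-DE against SH-air rats, where 977 of 15866 had an unadjusted p under 0.05. The interaction was −0.09 (SE 0.28, 95% interval −0.70 to 0.51).

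Between strains the Lipe values lay the other way from those of Car3 and Scd. The log2 difference was 0.40 in SH-air against WKY-air rats (SE 0.20, limma adjusted p = 0.316), 0.31 in SH-DE against WKY-DE rats (SE 0.20, limma adjusted p = 0.536) and 0.36 over both exposures (SE 0.14, limma adjusted p = 0.197). None of these was called.

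Fabp4 encodes the fatty acid binding protein of fat cells, which the capillary endothelium of the heart makes as well. Its signals were 6378, 5739, 5948 and 5625 in SH-DE, 5183, 5882, 5521 and 4631 in SH-air, 4872, 4204, 4943 and 6011 in WKY-DE and 3789, 4342, 4543 and 3780 in WKY-air rats. Every SH-air array was above every WKY-air array, and the DE groups overlapped only at WKY-DE replicate 4. The log2 difference was 0.36 in SH-air against WKY-air rats (SE 0.13, limma adjusted p = 0.143) and 0.25 in SH-DE against WKY-DE rats (SE 0.13, limma adjusted p = 0.411), where 0.813% of all probe sets and no member were called. Over both exposures it was 0.31 (SE 0.09, limma adjusted p = 0.0681), just outside the threshold. With DE the values were 0.28 in WKY (SE 0.13, limma adjusted p = 0.231) and 0.16 in SH rats (SE 0.13, limma adjusted p = 0.894), and the interaction was −0.11 (SE 0.18).

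Cfd encodes complement factor D, a protease of the alternative complement pathway that fat cells secrete. Its signals were 226, 111, 222 and 167 in SH-DE, 138, 150.4, 204 and 129.6 in SH-air, 175, 209, 225 and 116 in WKY-DE and 276, 176, 238 and 348 in WKY-air rats. The groups overlapped in each pair compared. The log2 difference between SH-air and WKY-air rats was −0.67 (SE 0.25, limma adjusted p = 0.186) and between SH-DE and WKY-DE rats −0.01 (SE 0.25, 95% interval −0.55 to 0.53). DE gave 0.18 in SH (SE 0.25, limma adjusted p = 0.957) and −0.48 in WKY rats (SE 0.25, limma adjusted p = 0.300), with an interaction of 0.66 (SE 0.36, limma adjusted p = 0.477).

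Lep, which fat cells secrete in proportion to their stores, gave signals of 13.5, 9.31, 23.8 and 14.5 in SH-DE, 10.01, 19.5, 7.88 and 27.2 in SH-air, 10.03, 10.98, 14.97 and 28.7 in WKY-DE and 29.9, 4.82, 6.6 and 6.5 in WKY-air rats. No group stood apart, and values near the floor have no order. The log2 differences were between −0.27 and 0.25 in the 6 comparisons, with none called.

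No pair of members passed a test of varying together from rat to rat. After group means were removed, the 15 pairs of the 6 genes had r between −0.50 (Car3 with Lipe) and 0.38 (Car3 with Lep), 7 positive and 8 negative, over 16 arrays. The smallest permutation p was 0.0645 and its adjusted value over the 15 pairs 0.499, so none was under 0.05 even before adjustment. For Car3 with Lipe, rho was −0.51 (permutation p = 0.0758, adjusted 0.438), and r was −0.58 without the 2 arrays farthest from the Car3 median. Car3 with Scd, the members called together between strains, gave r = 0.05 (permutation p = 0.874, adjusted 0.936) and rho = 0.06 (permutation p = 0.836, adjusted 0.971), and r was −0.02 without the 2 farthest arrays.

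Genes whose pattern was most like a member's were sought among 1 probe set of each named gene, by Pearson r of log2 signals, for the 4 members with a mean signal above the 25th percentile of all signals (62.5). For Car3 the closest over the 16 arrays were Cp (ceruloplasmin, r = 0.93), Tgfb3 (0.91), Naxd (0.91), Col3a1 (a fibrillar collagen, 0.89) and Lum (lumican, 0.89). With group means removed they were Vipr2 (0.89), Fra10ac1 (0.88), Slco1a5 (0.86), Cp (0.85) and Cmtm6 (0.84). For Cfd they were Kdm6b (0.85), Ces1d (0.83), Antkmt (0.83), Apoe (apolipoprotein E, 0.83) and Deaf1 (0.81), and with group means removed Apoe (0.82), Zfp598 (0.82), Smyd2 (0.79), Ptpn11 (0.77) and Kdm6b (0.77).

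For Fabp4 the closest genes were Chrm5 (0.88), Oxt (0.85), Eif3j (0.84), LOC102551899 (0.84) and Slc38a1 (0.83), and with group means removed Pstk (0.87), Tfg (0.86), Ugt2a1 (0.82), Oxt (0.82) and Prl3a1 (0.80). For Lipe they were Abhd16a (0.87), Hsph1 (0.84), Rock2 (0.83), Tp53inp2 (0.83) and Ldha (0.81), and with group means removed Spc24 (0.90), Pafah1b3 (0.85), Micu3 (0.85), Alkbh3 (0.84) and Derl2 (0.84). No member was among the closest genes of another. These are the highest of 10411 genes over 16 arrays that share group, tissue and scaling, and they carry no test.

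The lipid droplet and lipolysis genes around Lipe split in SH-air against WKY-air rats. Of 10 measured, 3 rose, 2 fell and 5 were not called, with a median log2 fold change of 0.10 against 0.02 over all probe sets. Pnpla2, the lipase that starts triglyceride breakdown, had signals of 2605 ± 194 in SH-air rats, against 1820 ± 64.0 in WKY-air rats (SD, n = 4; log2 fold change 0.51, limma adjusted p = 0.0300). Plin4, a droplet coat protein, had 3153 ± 241 in SH-air rats, against 2296 ± 220 in WKY-air rats (0.46, limma adjusted p = 0.0315), and Aqp7, a glycerol channel, had 4015 ± 559 in SH-air rats, against 2815 ± 80.6 in WKY-air rats (0.50, limma adjusted p = 0.0359). Cidea, a droplet protein of brown fat and heart, fell by 0.73 (limma adjusted p = 0.0270), and G0s2, an inhibitor of Pnpla2, fell by 0.79 (limma adjusted p = 0.0364). The same 5 genes were called in the same directions over both exposures, and none of the 10 in SH-DE against WKY-DE rats.

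G0s2 was the only gene of that list called with DE. Its signal was 699 ± 141 in SH-DE, 1007 ± 100.5 in SH-air, 826 ± 173 in WKY-DE and 1785 ± 415 in WKY-air rats (SD, n = 4). In WKY-DE against WKY-air rats it fell by 1.09 on the log2 scale (SE 0.19, limma adjusted p = 0.0206). The number of all probe sets called there, 298 in the main fit, was 4 to 667 under the alternatives and 43 to 304 with single arrays left out. Alternatives are given for the members only, so G0s2 and the other list genes are given from the main fit alone. In SH-DE against SH-air rats no gene of any list was called.

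Of 10 other secreted proteins of fat, Apoe and Rarres2 (chemerin) fell in SH-air against WKY-air rats, and 8 were not called (median −0.07). Apoe had signals of 1212 ± 166 in SH-air rats, against 2540 ± 700.4 in WKY-air rats (SD, n = 4; log2 fold change −1.03, limma adjusted p = 0.0157) and Rarres2 fell by 0.70 (limma adjusted p = 0.0241). Apoe was 1222 ± 285 in WKY-DE rats and also fell against WKY-air rats (−1.04, limma adjusted p = 0.0296), the same WKY-air arrays serving in both comparisons. None of the 10 was called in SH-DE against WKY-DE rats. There Apoe was 1224 ± 161 in SH-DE and 1222 ± 285 in WKY-DE rats, and Rarres2 783 ± 150 and 660 ± 71.4. Over both exposures Apln (apelin) fell by 0.72 (limma adjusted p = 0.0104) and Angptl4, an inhibitor of lipoprotein lipase, rose by 0.97 (limma adjusted p = 0.0279) in SH against WKY rats. Apoe and Rarres2 were not called over both exposures.

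Of 19 genes of fatty acid and triglyceride synthesis, the pathway of Scd, Me1 (malic enzyme, a source of NADPH) rose by 0.68 (limma adjusted p = 0.0260) and Fads1 (a desaturase of polyunsaturated fatty acids) fell by 0.91 (limma adjusted p = 0.00778) in SH-air against WKY-air rats. The other 17 were not called, and the median was 0.09. Over both exposures Me1 rose by 0.56, Thrsp (a regulator of lipid synthesis) fell by 0.69 and Fads1 fell by 0.47 (limma adjusted p = 0.00749, 0.0249 and 0.0275). In SH-DE against WKY-DE rats none of the 19 was called. Fads1 was 195 ± 38.4 in SH-DE and 200 ± 28.0 in WKY-DE rats, against 109 ± 20.7 in SH-air and 219 ± 30.0 in WKY-air rats (SD, n = 4). None of the 19 was called with DE in either strain.

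Of 8 transcription factors of fat cell differentiation only Cebpb was called. It was higher in SH than in WKY rats under both exposures, at 334 ± 23.8 in SH-DE and 105 ± 47.4 in WKY-DE rats (SD, n = 4; log2 fold change 1.65, limma adjusted p = 0.00633) and at 327 ± 34.4 in SH-air and 150.5 ± 34.6 in WKY-air rats (1.06, limma adjusted p = 0.0436). Over both exposures the difference was 1.35 (limma adjusted p = 0.000829). None of 9 receptors and partners of the secreted members and none of 9 other carbonic anhydrases and fatty acid binding proteins was called in any of the 6 comparisons.

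**Figure D3:**
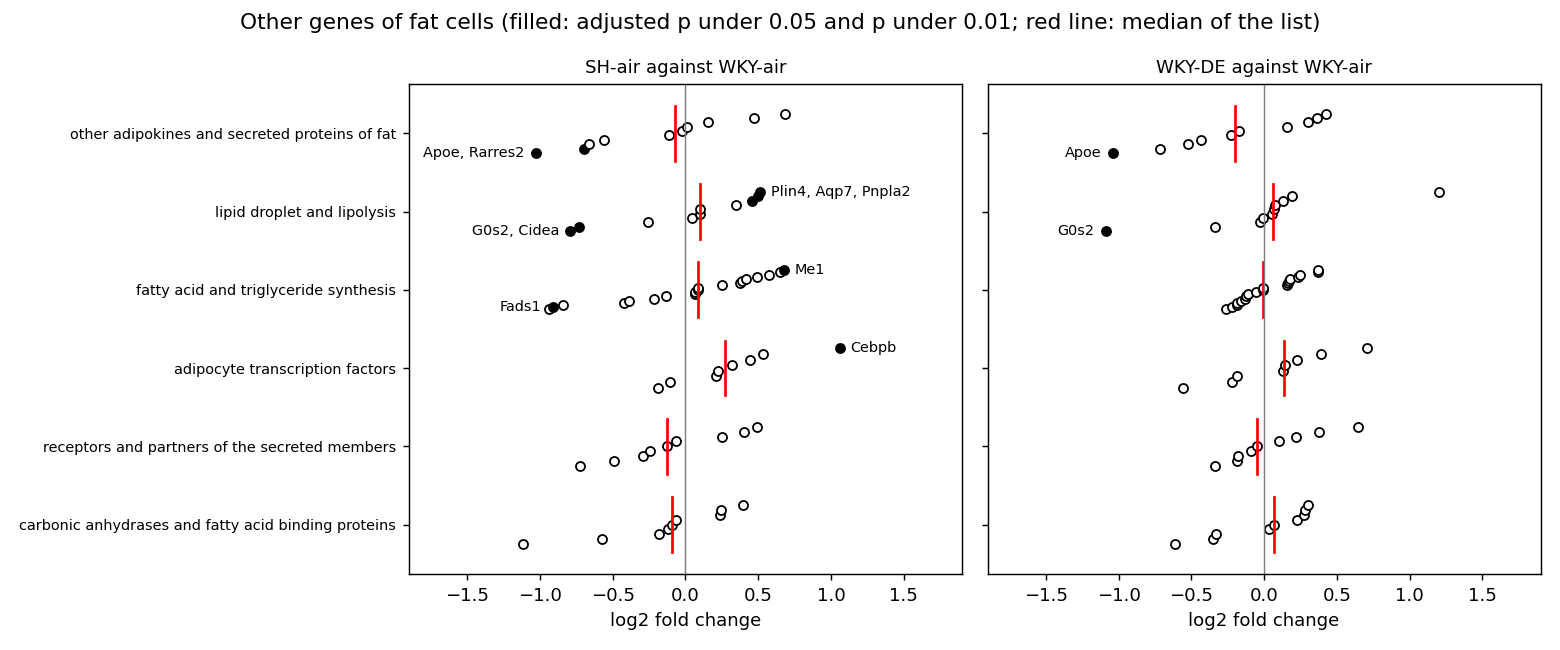
Log2 fold change (x axes) of each gene of 6 lists in SH-air against WKY-air (left) and WKY-DE against WKY-air rats (right), with filled, named points for calls and a red line at the median of each list. In the left panel lipid droplet genes lie on both sides of 0, with 3 called higher and 2 lower, and Cebpb stands apart at 1.06; on the right only Apoe at −1.04 and G0s2 at −1.09 were called.

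Some markers of other cells, most of them atrial or fibroblast genes, were also called in SH-air against WKY-air rats. Of 5 measured atrial genes 4 fell, with log2 fold changes of −7.08 for Myl7, −4.97 for Sln, −4.80 for Myl4 and −1.17 for Dkk3 (limma adjusted p = 0.00586, 0.0436, 0.0153 and 0.0102), and the summed signal of all 5 ranged over 13196 to 24775 in SH-air rats, against 33926 to 97639 in WKY-air rats. Nppa, the atrial natriuretic peptide, gave most of that summed signal in SH-air rats and was not called (−0.97, limma adjusted p = 0.178). A share of a summed signal is not a share of RNA, since signals cannot be compared between probe sets. Without Nppa the sum was 1247 to 1678 in SH-air rats, against 10121.5 to 46840 in WKY-air rats. Of 12 fibroblast genes 7 fell, led by Pdgfra (−0.97), Lum (−1.29), Mfap4 (−1.11) and Col3a1 (−0.73), with limma adjusted p between 0.00287 and 0.0203, and the summed signal of all 12 ranged over 19868.5 to 23305 in SH-air rats, against 31109 to 38893 in WKY-air rats. Of 10 endothelial genes Gpihbp1, which anchors lipoprotein lipase on capillaries, rose by 1.71 (limma adjusted p = 0.00118). The other 9 were not called, and the median of the 10 was −0.29, against 0.02 over all probe sets. Of 12 ventricular genes Myh7 fell by 0.93 (limma adjusted p = 0.0123), and of 8 brown fat genes Cidea alone was called. None of 8 macrophage, 12 skeletal muscle and 5 mesothelial and epicardial genes was called in this comparison.

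With the same atrial term the difference between SH-air and WKY-air rats was −1.22 for Car3 (SE 0.73, limma adjusted p = 0.843) and −1.999 for Scd (SE 0.57, limma adjusted p = 0.523), and 9 probe sets in all were called. Leaving out WKY-DE replicate 3 and SH-DE replicate 3 did not change the fold changes in air. It changed their SE, because all arrays share 1 estimate of the spread. Both arrays left out are of DE groups, so this fit cannot bear on atrial RNA in the air groups. In SH-air against WKY-air rats the SE was then 0.43 for Car3 (limma adjusted p = 0.00457) and 0.35 for Scd (limma adjusted p = 0.0222), both called. Over both exposures the strain difference without these 2 arrays was −1.45 for Car3 (limma adjusted p = 0.0277) and −1.17 for Scd (limma adjusted p = 0.0298), both called. After group means were removed, the correlation with Myl7 was 0.64 for Car3 (permutation p = 0.0428, adjusted 0.124 over 6 members; rho 0.58, permutation p = 0.0654, adjusted 0.208; r 0.59 without the 2 farthest arrays) and −0.14 for Scd (permutation p = 0.636, adjusted 0.824; rho −0.15, permutation p = 0.631, adjusted 0.736; r −0.17 without them). For the other members r ranged over −0.55 (Lipe, permutation p = 0.0621, adjusted 0.124) to 0.50 (Lep, permutation p = 0.0282, adjusted 0.124), and none passed after adjustment. Lep was below the floor on 11 of 16 arrays. The part of atrial or fibroblast RNA in the strain difference was not tested otherwise, and in air it cannot be told apart from strain.

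**Figure D4:**
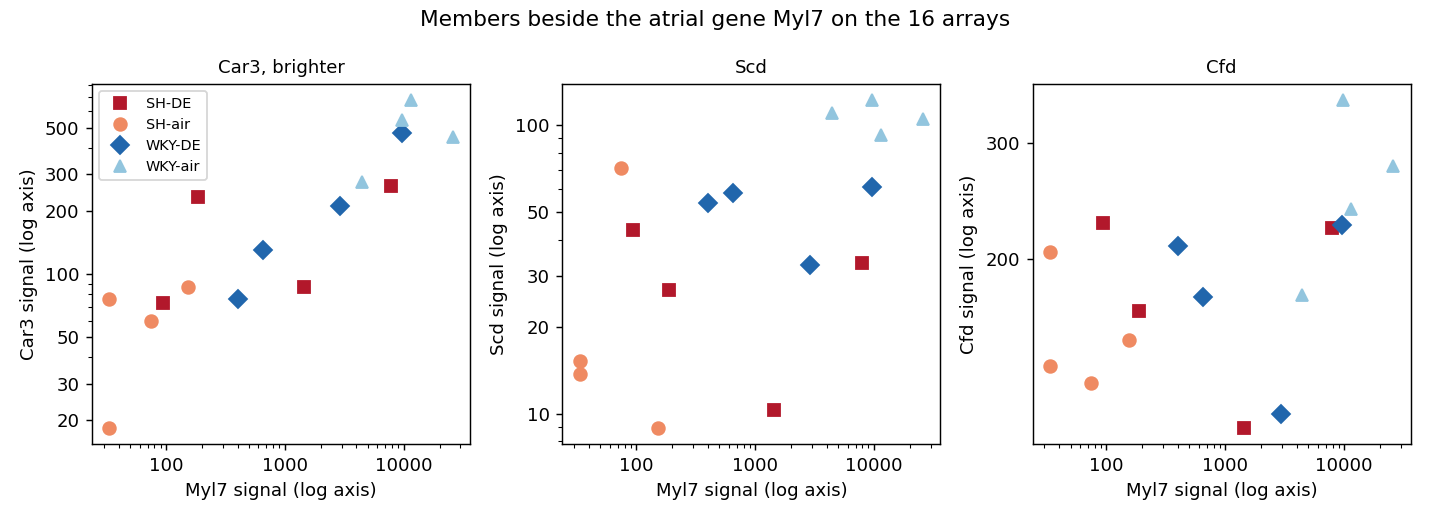
Signals of Car3 (brighter probe set), Scd and Cfd (y axes, log) beside that of Myl7 (x axes, log) on the 16 arrays, 1 point for each rat. In the Car3 panel the SH-air arrays lie at the lower left and the WKY-air arrays at the upper right, with the DE arrays spread between and among them; in the Scd panel the 4 WKY-air arrays lie above the others at 92.6 to 122.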

How the data were processed

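Per the labels, the authors computed the deposited intensities with MAS5 (version not given in the sources used here), 1 linear signal for each probe set and array. Once the highest and lowest 2% of signals were set aside, every array averaged 500. The methods describe another summary for the study's own gene lists, which was not used here. The labels name each rat's strain and exposure, and no source used here gives a batch. From the intensities, 57 control probe sets were left out and log2(signal + 16.1) of the other 15866 was compared in 1 limma 3.58.1 model of 16 arrays in R 4.3.3 (12 residual and 2.68 prior degrees of freedom) with Benjamini-Hochberg adjustment. Fold changes of dim probe sets are understated by the added value. On no array did over 12.6% of probe sets lie below it, and precision is limited by the number of arrays.

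Probe sets were named by the platform annotation, in which 12783 have 1 gene, 312 several and 2771 are not listed; 12748 symbols were updated through Entrez identifiers. A gene of a list is given by its brightest probe set. The lists, those of pathways (lipid droplet and lipolysis, synthesis, secreted proteins, transcription factors, receptors and partners, carbonic anhydrases and fatty acid binding proteins) and those of cell types, and the members were chosen with earlier results of these data known. All members are named, and of a list up to 4 called genes of lowest p, the fifth called lipid droplet gene (G0s2) being named through its call with DE. Correlations used 100000 permutations within groups. The calculations were tested on simulated data. Alternatives were a stricter threshold, offsets of 1 and 62.5, quantile normalization, a filter on the 40% of probe sets that were dimmest, a variance trend on intensity (robust), weights for arrays, fits with only the arrays compared, a block for replicate number, and each array left out. An atrial covariate and leaving out the pair of DE arrays highest in Myl7 were added after seeing the data.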

Additional observations from a re-analysis of the deposited data

Results flagged for a closer look

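In 3 of the 28 sets of 4 arrays (7 probe sets in 4 groups), 1 array lay far from the other 3 by Dixon's criterion on linear signals. Chance meets it in about 1 of 20 groups of normally distributed values, which linear signals need not be. It was not applied to log2 values. Scd in SH-air rats was 71.2 in replicate 4 and 8.92 to 15.2 in the other 3. Without that array the log2 difference between SH-air and WKY-air rats was −2.11 (limma adjusted p = 0.000696). Lipe in SH-DE rats was 196 in replicate 3 and 340 to 365 in the others, and without it the log2 fold change in SH-DE against SH-air rats was −0.50 (limma adjusted p = 0.748) and the difference between SH and WKY rats over both exposures 0.45, which was then called (limma adjusted p = 0.0421). In that fit 806 of 15866 probe sets were called over both exposures, against 646 in the main fit. Lep in WKY-air rats was 29.9 in replicate 1 and 4.82 to 6.6 in the others, values near the floor of the arrays. The same SH-DE replicate 3 was the highest SH-DE array in Myl7, at 7876, and its part in the low Lipe value was not tested.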

How the results depend on the processing

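The counts of called members held within 1.5 times under most alternatives, and where they changed the cause was not tested, save that fewer members or arrays entered some fits. For SH-air against WKY-air rats 2 members were called, 0 with an adjusted p under 0.01, 1 (Car3) with the dimmest 40% of probe sets left out, where Scd was not tested, 1 with only the compared groups in the model (Scd then at a limma adjusted p of 0.0732), 0 with the atrial covariate, and 2 to 3 with single arrays left out. In all, 499 probe sets were called in that comparison, 113 with the stricter threshold, 766 of 9520 with the filter and 174 with only the compared groups. With the covariate 9 were called, and 249 to 558 with single arrays left out. Over both exposures 2 members were called, 0 with an adjusted p under 0.01, 0 with the atrial covariate (Car3 −0.63, limma adjusted p = 0.795; Scd −1.35, limma adjusted p = 0.227), and 1 to 3 with single arrays left out. The totals over all probe sets there were 646, 257, 45, and 425 to 806. Car3 lost its call there (limma adjusted p 0.0548 to 0.0652) without SH-DE replicate 1 or 2, SH-air replicate 3, WKY-DE replicate 4, or WKY-air replicate 3 or 4. Fabp4 gained a call over both exposures with the offset of 62.5, the dim probe sets left out, the intensity trend, array weights, or without WKY-DE replicate 4 (limma adjusted p 0.0184 to 0.0462). In that order 816, 944 (of 9520), 929, 850 and 547 probe sets were called in all, against 646 in the main fit. For DE against air over both strains no member was called, but 1 (Lipe) with the dimmest 40% left out and 1 (Lipe) with the intensity trend. Over all probe sets 23 of 15866 were called there in the main fit, 100 of 9520 with the filter and 128 of 15866 with the trend.

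None of the values that changed sign was called. Between SH-DE and WKY-DE rats the second Car3 probe set was 0.14 with an offset of 1, 0.10 after quantile normalization, 0.074 with array weights, 0.22 with the atrial covariate, 0.38 without the pair of arrays highest in Myl7, and −0.44 to 0.53 with single arrays left out; the brighter one was −0.67 to 0.13 with single arrays left out. Lep was 0.10, 0.023 and 0.076 there after quantile normalization, array weights and the covariate, and −0.15 to 0.14 with single arrays left out; Cfd was 0.15 and 0.0064 after quantile normalization and the covariate, and −0.19 to 0.19. Between SH-DE and SH-air rats Lep was 0.0069 with an offset of 1, 0.013 after quantile normalization and −0.15 to 0.14 with single arrays left out, and Scd was −0.021 to 0.58. Lipe, at 0.40 in SH-air against WKY-air rats, was −0.056 there with the covariate, and its interaction was 0.024 after quantile normalization, 0.018 with array weights, 0.29 with the covariate, 0.056 without the pair of arrays, and −0.24 to 0.10 with single arrays left out. For DE against air over both strains Car3 was 0.019 with an offset of 1, 0.015 with the covariate and −0.28 to 0.13 with single arrays left out.

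With the replicate number as a block, SH-air against WKY-air rats kept 2 called members and SH against WKY over both exposures 2. Same-numbered arrays did not deviate together over all probe sets (r −0.10 to 0.05 over 24 pairs). This cannot tell whether same-numbered rats shared a day or batch. With the block 315 probe sets were called in SH-air against WKY-air, where 499 were called without it, and 113 in WKY-DE against WKY-air, where 298 were called without it. In WKY rats the median log2 fold change with DE, taken over the whole array, was 0.10 and 0.0057 after quantile normalization, where 44 were called higher and 47 lower in place of 217 and 81. With the atrial covariate 9 probe sets were called in SH-air against WKY-air rats, 45 over both exposures and 8 in WKY-DE against WKY-air.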

Other observations

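The DE effect averaged over both strains was compared after the values were seen. Lipe had a log2 fold change of −0.65 in DE against air rats (SE 0.14, 95% interval −0.95 to −0.35) and was not called (limma adjusted p = 0.0842), whereas 0.145% of all probe sets were called. Its value was between −0.73 and −0.55 with single arrays left out. Lipe passed the test where the dimmest 40% of probe sets were left out (limma adjusted p = 0.0305) or with the intensity trend (limma adjusted p = 0.0296). In those fits 100 of 9520 and 128 of 15866 probe sets were called, against 23 of 15866 in the main fit. G0s2, which inhibits the lipase Pnpla2, fell by 0.81 in the same comparison (SE 0.14, limma adjusted p = 0.0373), the only gene of the fat cell lists that was called. Fabp4 had 0.22 (SE 0.09, limma adjusted p = 0.270), Scd −0.36 (SE 0.24, limma adjusted p = 0.500) and Car3 −0.06 (SE 0.37, limma adjusted p = 0.959).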
